A study of Gallus gallus with 66 samples.

Results

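Chicken preadipocytes kept with oleate for 24 h were compared with control cultures of the same hour, within a lean line and within a fat line. The comparison rests on 12 of the 66 arrays of the series, 3 arrays in each of 4 groups: lean control, lean oleate, fat control and fat oleate. The 12 arrays are those whose labels name cultures collected at 24 h. For each line the abdominal fat of 15 male birds aged 10 days was pooled and digested with collagenase, floating adipocytes were spun off, red cells were lysed, and the remaining cells were passaged and grown to near confluence (0 h). From 0 h some cultures of each line received 160 µg/ml oleate, and the controls were grown under normal conditions. The labels name the lines for their abdominal fat content. Birds were pooled within a line, and the labels do not say how the 3 biological replicates of a group were separated. Errors and p-values rest on how arrays of the same group differed, and cannot be read as variation between birds. That spread was estimated from all 66 arrays of the series. For a given gene it can be smaller or larger than the spread among the 12 arrays compared here.

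Oleate is the anion of oleic acid, a monounsaturated fatty acid. Cells that take up long-chain fatty acids activate them to acyl-CoA, burn part of them in mitochondria and store the rest as triglyceride in lipid droplets coated by perilipins. Fatty acids also bind peroxisome proliferator-activated receptors (PPARs), nuclear receptors whose known targets include genes of fatty acid handling. In chicken preadipocytes, oleate is a widely used inducer of lipid accumulation in culture, and the comparison asks which transcripts differ a day into that treatment.

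Expression values are log2 signals of probe sets on the Affymetrix chicken array, and differences are log2 differences, so that 1 is a 2-fold change. The median of every array was 4.17, and values were floored at 1.61. The names of the array scans were written with dots for the oleate and 0 h arrays of these hours and with low bars for all control arrays at 12, 24, 72 and 120 h. Oleate and name style cannot be told apart in any comparison with control. Poly-A spike-ins, RNAs of known amount that are added to a sample before labelling, differed along the same divide. Of 42 spike-in probe sets 33 were lower in oleate than in control at 24 h, with a median difference of −0.66, whereas 0 of 27 hybridization spike-ins differed. The cultures at 0 h, whose array names have the style of the oleate arrays, were used as a further reference, although oleate cultures differ from them by 24 h of culture as well. Poly-A spike-ins also differed in that comparison, with 4 of 42 probe sets higher and 10 lower in oleate at 24 h than at 0 h (median −0.15). Arrays of the same group correlated with r of 0.956 to 0.973 over the tested probe sets, against 0.941 to 0.970 for the 54 pairs from different groups, and probe sets are not independent replicates.

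The labelled cell type was checked on marker genes. The mean level of 8 stromal markers lay between 10.47 and 10.65 on all 12 arrays, with collagen COL1A1 and the proteoglycan decorin (DCN) near the top of the scale. The stromal marker PDGFRA was the lowest of the 8, with group means of 4.21 to 5.23. Adipocyte markers were mixed. The adipocyte hormone ADIPOQ had group means of 3.77 to 4.64, close to the array median, and PLIN1, the droplet protein of mature adipocytes, had group means of 2.44 to 3.48. FABP4 had group means of 8.33 to 10.90 and CIDEC of 6.47 to 6.95, both above the array median on all 12 arrays. The T cell kinase LCK and the muscle stem cell factor PAX7 lay at the floor on all 12 arrays. Other markers of their lists were low but not all at the floor, with group means of 2.99 to 4.42 for CD3D and 2.32 to 2.86 for MYOG. The endothelial markers PECAM1 (5.95 to 7.48) and CDH5 (6.79 to 8.04) were above the array median on all 12 arrays. KDR, TEK and TIE1 were above it on 0 of 12. Macrophage markers were present and moved with the groups. Their mean level over 8 genes ranged from 6.23 to 7.30 in lean control, 7.61 to 9.14 in lean oleate, 7.99 to 8.14 in fat control and 8.42 to 8.84 in fat oleate cultures. Each oleate array lay above every control array of its line. In such bulk samples fewer cells of a type and less RNA per cell cannot be told apart.

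**Figure D1:**
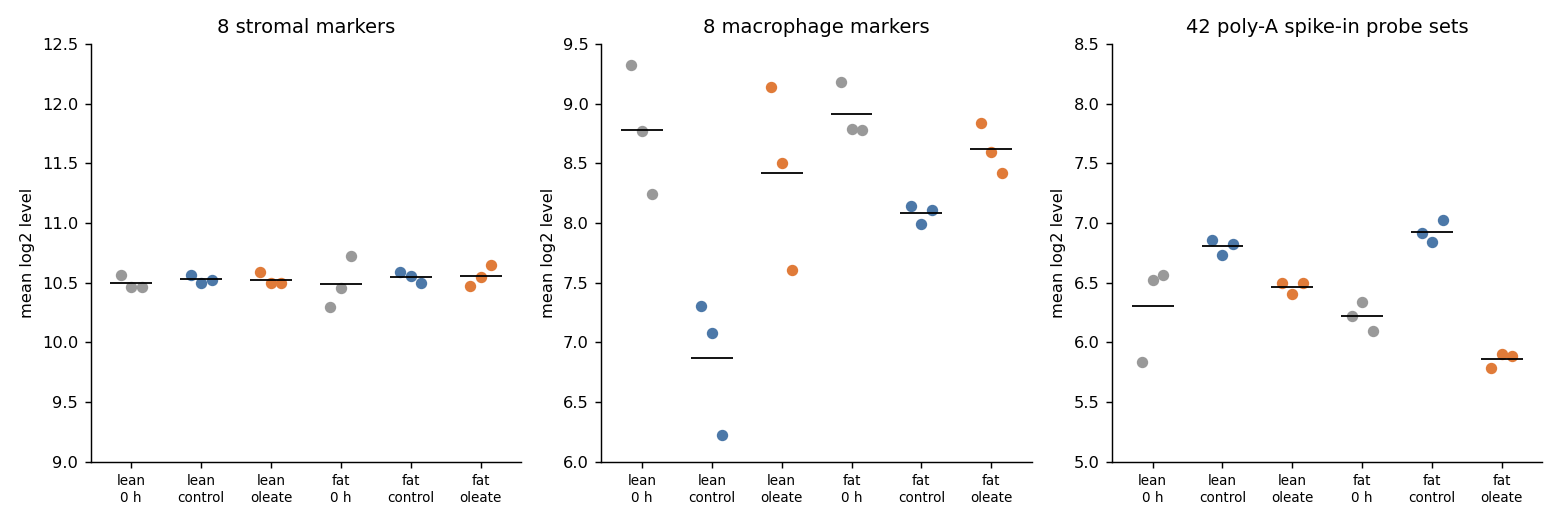
Mean log2 level of 8 stromal markers, 8 macrophage markers and 42 poly-A spike-in probe sets on each array (points), by group, with lines at group means and axes of equal span. Stromal markers stayed between 10.47 and 10.65 on the 24 h arrays, macrophage markers were higher and spike-ins lower on oleate than on control arrays of each line.

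Over both lines, 402 of 10195 genes were higher and 293 lower in oleate at 24 h (limma, adjusted p under 0.05, 6 arrays against 6). These are 3.94% and 2.87% of the genes tested, the shares against which the counts of gene groups are read below. The differences were 2-fold or more in 93 of the higher and 22 of the lower genes, and the median over all genes was −0.03. Over probe sets the shares were 5.2% higher and 2.52% lower of 22060. With limma's array weights the split turned from 402 against 293 to 637 higher against 663 lower. The genes with large, replicated rises included the lipid droplet coat PLIN2, the secreted lipase inhibitor ANGPTL4 and the kinase PDK4, and those with large falls included the secreted protein C1QTNF3 and the matrix proteoglycan biglycan (BGN). Rises larger than the 1.86 of PLIN2 were found in named genes outside lipid metabolism, such as IL4I1 (2.56) and NUDCD1 (2.11), which are given below.

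PLIN2, which coats lipid droplets in most cell types, read 9.12, 9.33 and 9.06 on the lean control arrays and 11.23, 10.34 and 11.29 on the lean oleate arrays. Fat-line arrays read 9.58, 9.63 and 9.80 in control and 11.87, 11.67 and 11.25 in oleate cultures. Every oleate array lay above every control array of its line. The difference was 1.86 ± 0.21 (SE, n = 6 a side, 3.62-fold, limma adjusted p = 5.65e-09), with 1.78 in lean and 1.93 in fat cultures. The other probe set of PLIN2 gave 1.96.

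ANGPTL4, a PPAR target that inhibits lipoprotein lipase, read 6.15, 6.74 and 6.39 in lean control and 8.46, 7.24 and 8.67 in lean oleate cultures. In the fat line it read 6.48, 6.22 and 7.07 in control and 8.76, 8.40 and 8.37 in oleate cultures. The groups did not overlap in either line, although the second lean oleate array was closer to the controls than the others. It rose by 1.81 ± 0.28 (3.50-fold, limma adjusted p = 1.01e-05).

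PDK4, which blocks pyruvate dehydrogenase and so spares glucose when fat is burned, read 6.08, 6.74 and 5.87 in lean control and 7.48, 7.02 and 8.46 in lean oleate cultures. The fat control arrays read 4.93, 6.36 and 5.84 and the fat oleate arrays 7.27, 7.80 and 6.85. Again no oleate array fell among the controls of its line. The difference was 1.51 ± 0.25 (2.85-fold, limma adjusted p = 1.84e-05).

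ACSL1, which activates long-chain fatty acids to acyl-CoA, read 6.92, 7.49 and 7.33 in lean control and 8.59, 7.92 and 8.40 in lean oleate cultures. The fat control arrays read 7.43, 7.54 and 8.05 and the fat oleate arrays 8.84, 8.52 and 8.81. The groups were apart in both lines, with a rise of 1.06 ± 0.15 (2.08-fold, limma adjusted p = 1.44e-06) and nearly equal effects of 1.06 and 1.05 in the lines. The other ACSL1 probe set gave 0.18 and was not called.

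CPT1A, the carnitine palmitoyltransferase that admits fatty acids to mitochondria, read 5.05, 3.80 and 3.90 in lean control and 6.02, 4.85 and 5.89 in lean oleate cultures. The fat control arrays read 4.94, 4.64 and 5.22 and the fat oleate arrays 5.93, 5.77 and 4.91. The arrays of the 2 treatments overlapped in both lines. CPT1A rose by 0.97 ± 0.29 (limma adjusted p = 0.027), but the call held with only 5 of the 12 arrays left out in turn, the adjusted p ranging from 0.0086 to 0.0863, and was lost when only the 12 arrays were fitted. Its other probe set was also called, at 1.59.

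**Figure D2:**
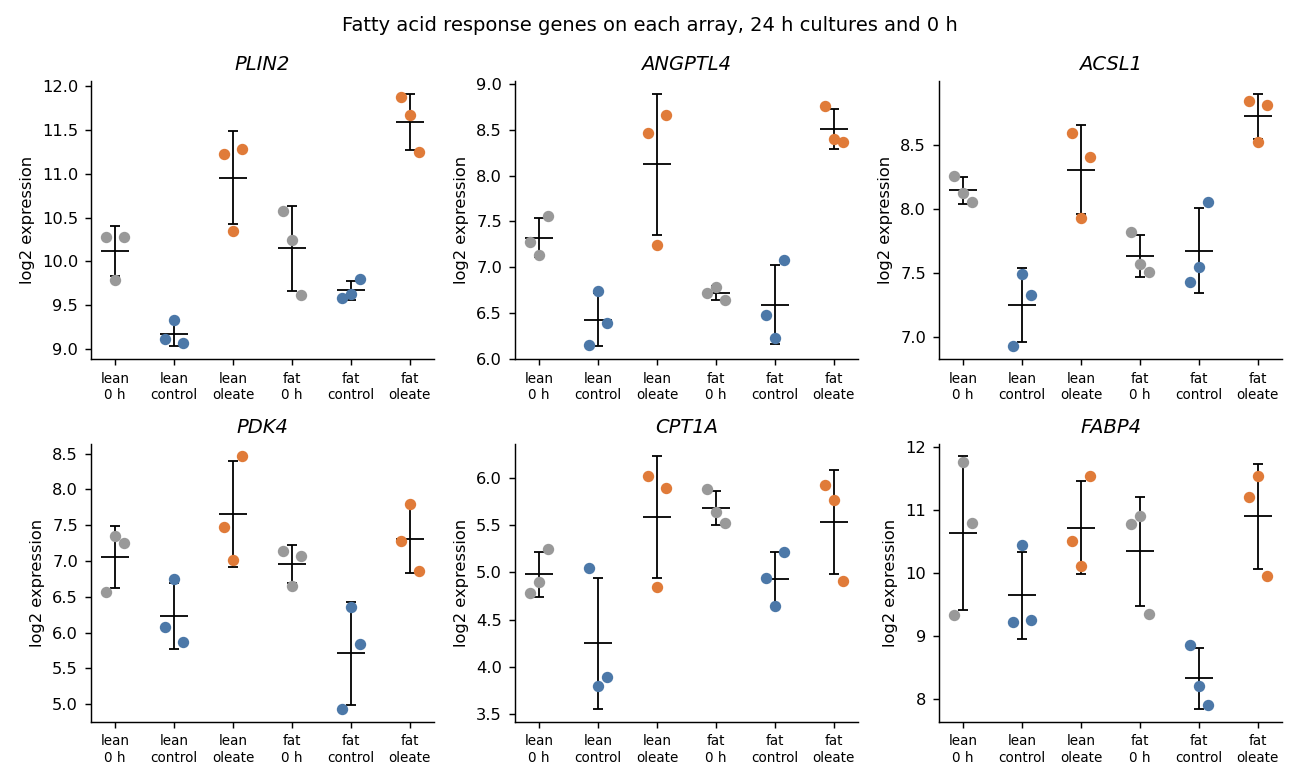
Log2 expression of 6 genes of fatty acid handling on each array (points) in the lean and fat lines at 0 h and after 24 h with or without oleate, with the mean and SD of 3 arrays. PLIN2, ANGPTL4, PDK4 and ACSL1 are higher on every oleate array than on every control array of the line, while CPT1A overlaps in both lines and FABP4 in the lean line.

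Of 24 tested genes on the list of fatty acid oxidation and PPAR targets, 6 were higher and 0 lower in oleate: ANGPTL4, PDK4, ACSL1, CPT1A, PPARA and HADHB. The list's median difference was 0.07, against −0.03 for all genes. PPARA, the PPAR of oxidative tissues, rose by 0.53 ± 0.15 (limma adjusted p = 0.0184). Its 3 probe sets ran from −0.13 to 0.60, and the call was lost without lean control replicate 1 (adjusted p = 0.069). HADHB, a subunit of the mitochondrial trifunctional protein, rose by 0.30 ± 0.08 (adjusted p = 0.0149), a call that held with 8 of 12 arrays left out. The 18 others did not pass the test. Among them, picked after their values were seen, the acyl-CoA dehydrogenases ACADL and ACADS each differed by 0.05, the carnitine carrier SLC25A20 by 0.06 and CPT2 by −0.04. HADHB was the only enzyme of the mitochondrial beta-oxidation spiral on this list that passed.

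Fatty acid uptake genes were higher in 4 of 18 tested cases and lower in 0, with a median of 0.26. Besides ACSL1 they were the fatty acid binding proteins FABP4 and FABP7 and the membrane fatty acid translocase CD36. FABP7 read 10.34, 10.39 and 9.84 in lean control and 11.16, 10.40 and 11.55 in lean oleate cultures. Its fat control arrays read 9.91, 9.82 and 10.05 and its fat oleate arrays 11.38, 11.33 and 10.63. The groups did not overlap, though a lean oleate array lay 0.01 above the highest control, and FABP7 rose by 1.01 ± 0.20 (limma adjusted p = 0.000412).

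FABP4, a carrier that is abundant in adipocytes and macrophages, averaged 9.64 ± 0.70 in lean control, 10.72 ± 0.74 in lean oleate, 8.33 ± 0.49 in fat control and 10.90 ± 0.84 in fat oleate cultures (SD, n = 3). The lean groups overlapped and the fat groups did not. It rose by 1.83 ± 0.52 (limma adjusted p = 0.021), and the call held with 7 of 12 arrays left out. CD36 averaged 5.59 in lean control, 7.83 in lean oleate, 6.43 in fat control and 7.61 in fat oleate cultures. CD36 rose by 1.72 ± 0.53 (adjusted p = 0.033), but the call held with only 4 of 12 arrays left out and was lost with no filter on low values. FABP4 and CD36 are both expressed in macrophages, whose markers moved the same way, and the part of those cells in these values was not tested. Lipoprotein lipase (LPL) differed by 0.10 ± 0.26 and was not called.

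Of 19 tested genes of lipid droplets, triglyceride synthesis and lipolysis, 4 were higher and 1 lower, with a median of 0.22. LPIN2, a phosphatidate phosphatase on the path to diacylglycerol, read 7.67, 6.83 and 6.74 in lean control and 7.92, 7.83 and 8.38 in lean oleate cultures. The fat arrays read 7.63, 7.37 and 7.58 in control and 8.81, 8.83 and 8.51 in oleate cultures. The groups were apart in both lines, and LPIN2 rose by 1.08 ± 0.13 (limma adjusted p = 2.36e-08), its 3 probe sets ranging from 0.26 to 1.08. The lysosomal lipase LIPA rose by 0.58 ± 0.15 (adjusted p = 0.00909) and the acyltransferase AGPAT5 by 0.56 ± 0.16 (adjusted p = 0.0156). GPAT4, an acyltransferase of the first step of glycerolipid synthesis, was lower by −0.31 ± 0.09 (adjusted p = 0.021). The calls of AGPAT5 and GPAT4 were lost when only the 12 arrays were fitted, and held with 10 and 8 of 12 arrays left out. The lipase PNPLA2 (−0.30 ± 0.14) and the final acyltransferase DGAT2 (−0.51 ± 0.50) were not called.

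Of 17 tested genes of fatty acid synthesis 1 was higher and 0 lower, with a median of 0.05. ELOVL1, an elongase of saturated and monounsaturated very long chains, was that call, with a rise of 0.63 ± 0.14 (limma adjusted p = 0.00173) that its 3 probe sets shared. ELOVL1 read 9.49, 9.64 and 9.84 in lean control and 10.21, 9.62 and 10.23 in lean oleate cultures, so these groups overlapped. The fat groups did not, at 9.58, 9.20 and 9.32 against 10.40, 10.27 and 10.09. Fatty acid synthase (FASN) differed by 0.05 ± 0.11 and the stearoyl-CoA desaturase SCD, which makes oleate, by −0.16 ± 0.25, neither called.

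Of 26 genes of cholesterol synthesis and sterol sensing, 2 were higher and 0 lower, with a median of 0.21. SREBF2, the transcription factor that drives this pathway, rose by 0.61 ± 0.11 (limma adjusted p = 0.000169). It averaged 9.41 in lean control, 9.80 in lean oleate, 9.11 in fat control and 9.93 in fat oleate cultures. MVD, a mevalonate pathway decarboxylase, rose by 0.85 ± 0.27 (adjusted p = 0.0392), at 0.21 in lean and 1.49 in fat cultures, and the call held with only 2 of 12 arrays left out and was lost with no filter. HMGCS1 (0.30 ± 0.17), SQLE (0.09 ± 0.16) and INSIG1 (0.19 ± 0.16) were not called.

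Among 28 adipogenic factors and adipocyte products 1 was higher and 1 lower, shares close to those of all genes, with a median of 0.01. The higher gene was FABP4, and EBF1, an early adipogenic transcription factor, was lower by −0.47 ± 0.13 (limma adjusted p = 0.0164). The EBF1 call held with 9 of 12 arrays left out. PPARG, the master regulator of adipogenesis, read 7.35, 7.20 and 7.69 in lean control and 6.94, 7.01 and 6.93 in lean oleate cultures. Its fat arrays read 7.65, 7.17 and 6.59 in control and 7.43, 7.09 and 7.07 in oleate cultures. The lean groups were apart and the fat groups overlapped, and the mean difference of −0.20 ± 0.18 was not called (adjusted p = 0.581). CEBPA differed by 0.33 ± 0.49 and ADIPOQ by −0.03 ± 0.33.

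**Figure D3:**
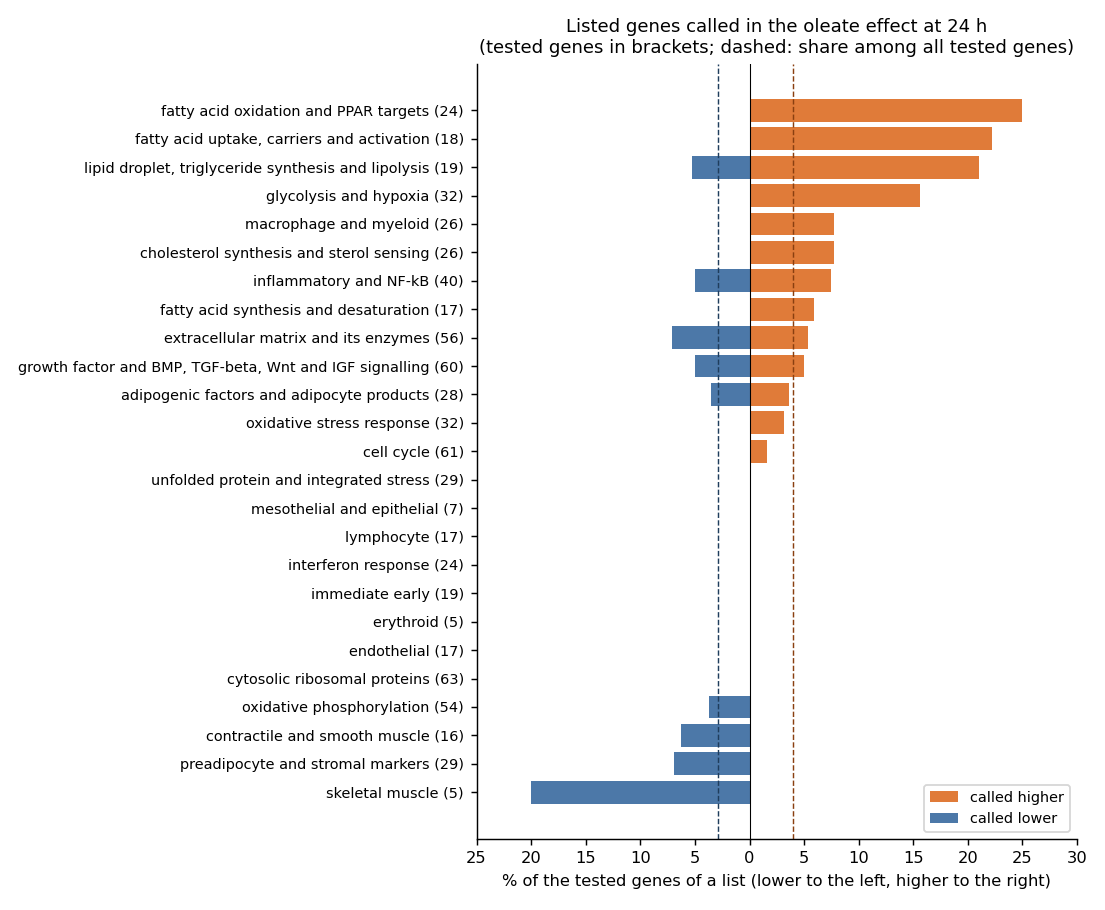
Share of each gene list that was called higher (right, orange) or lower (left, blue) in oleate against control at 24 h, with the number of tested genes in brackets and dashed lines at the shares of all tested genes, 3.94% and 2.87%. The lists of fatty acid oxidation (6 of 24), uptake (4 of 18) and lipid droplets (4 of 19) have the longest bars to the right.

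Genes of glycolysis and hypoxia were higher in 5 of 32 cases and lower in 0, with a median of 0.14. VEGFA, the endothelial growth factor, read 9.43, 9.35 and 8.78 in lean control and 10.97, 10.38 and 10.55 in lean oleate cultures. Its fat control arrays read 9.14, 10.36 and 10.15, and its fat oleate arrays averaged 10.85 ± 0.13 (SD, n = 3), the lowest at 10.74. All oleate arrays were above all control arrays of their line, and VEGFA rose by 1.21 ± 0.22 (limma adjusted p = 0.000157). The stress-responsive NDRG1 (0.51 ± 0.13), the glucose transporter listed as SLC2A14 (0.44 ± 0.11), the triose isomerase TPI1 (0.26 ± 0.07) and the phosphoglycerate kinase listed as PGK2 (0.22 ± 0.07) also rose. Their adjusted p ran from 0.00483 for SLC2A14 to 0.0306 for PGK2, and with arrays left out in turn the calls held for 10 of 12 (NDRG1), 8 of 12 (TPI1) and 6 of 12 (PGK2). The NDRG1 call was also lost when only the 12 arrays were fitted, and the PGK2 call without trended, robust moderation.

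Among 40 inflammatory genes 3 were higher and 2 lower, with a median of 0.26. IL4I1, a secreted enzyme that oxidizes phenylalanine in immune cells, had the largest rise among the called genes whose groups did not overlap, unnamed loci left aside. It read 3.18, 4.16 and 1.61 in lean control, the last at the floor, and 7.32, 6.04 and 4.63 in lean oleate cultures. Its fat arrays read 5.21, 2.39 and 4.78 in control and 6.29, 5.75 and 6.67 in oleate cultures. The rise was 2.56 ± 0.66 (limma adjusted p = 0.00862), a call lost without fat control replicate 2. The interleukin receptor IL1R1 rose by 1.06 ± 0.24 and the chemokine CCL4 by 0.25 ± 0.07, and the cytokine IL18 was lower by −0.52 ± 0.16 and the prostaglandin synthase PTGES by −0.93 ± 0.29. Leaving out arrays in turn, the calls of CCL4, IL18 and PTGES held with 10, 4 and 5 of 12. The calls of IL1R1 and PTGES were lost when only the 12 arrays were fitted, and those of IL18 and PTGES with no filter.

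Of 26 macrophage and myeloid genes 2 were higher and 0 lower, but their median difference was 0.61, against −0.03 for all genes. By line this median was 0.83 in lean and 0.34 in fat cultures. The cathepsin CTSS rose by 1.08 ± 0.28 (limma adjusted p = 0.00861, a call lost without lean oleate replicate 1) and the class II chaperone CD74 by 0.91 ± 0.24 (adjusted p = 0.00904). CSF1R, the receptor that macrophages need to survive, read 6.35, 6.88 and 5.47 in lean control and 8.57, 7.93 and 6.37 in lean oleate cultures. Its fat control arrays read 7.57, 7.17 and 7.80 and its fat oleate arrays 8.30, 8.48 and 7.34. The groups overlapped in both lines, and the difference of 0.96 ± 0.61 was not called (adjusted p = 0.388). At 0 h the mean level of the 8 macrophage markers was 8.24 to 9.32 for lean and 8.78 to 9.18 for fat cultures, above the controls at 24 h.

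Growth factor signalling had few calls, in both directions. SMAD6, an intracellular inhibitor of BMP signals, read 10.29, 10.35 and 10.27 in lean control and 10.94, 10.85 and 11.61 in lean oleate cultures. Fat-line arrays read 10.13, 10.37 and 10.56 in control and 11.52, 11.42 and 10.90 in oleate cultures. The groups were apart in both lines, and SMAD6 rose by 0.88 ± 0.14 (limma adjusted p = 1.53e-05). The related inhibitor SMAD7 rose by 0.81 ± 0.18 (adjusted p = 0.00243). TNFRSF11B, or osteoprotegerin, a secreted decoy receptor, was lower by −1.47 ± 0.30 (adjusted p = 0.000804), with its fat groups overlapping at 9.32 in control and 9.43 in oleate cultures. Of the 60 genes of growth factor signalling tested, 3 were higher and 3 lower, with a median of −0.05. These shares are not far from the 3.94% and 2.87% of all genes. The others were the growth factor receptor FGFR3, higher, and the binding protein IGFBP7 (−0.68 ± 0.21, a call that held with 6 of 12 arrays left out) and the growth factor PDGFD (−0.57 ± 0.18), lower. The PDGFD call was not followed under other settings or with arrays left out. The FGFR3 call, at 1.17 ± 0.37, held with 4 of 12 arrays left out and was lost with no floor, with no filter and when only the 12 arrays were fitted, and its probe sets ran from −0.52 to 1.17.

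In the extracellular matrix list 3 of 56 genes were higher and 4 lower, with a median of −0.10. The matricellular protein THBS1 rose by 0.83 ± 0.11 (limma adjusted p = 3.8e-07), a difference that its 3 probe sets shared (0.70 to 1.01). The aggrecanase ADAMTS5 rose by 0.83 ± 0.17 (adjusted p = 0.000419) and COL1A1 by 0.15 ± 0.04. Periostin (POSTN) was lower by −0.72 ± 0.17, COL6A2 by −0.93 in lean and −1.07 in fat cultures with its other probe set at 0.16 over both, the laminin chain LAMA2 by −1.29 ± 0.39 and BGN by −1.51 ± 0.41. BGN averaged 8.15 ± 0.01 in lean control, 7.11 ± 0.77 in lean oleate, 8.59 ± 0.55 in fat control and 6.60 ± 1.07 in fat oleate cultures. Its groups were apart in both lines, which was a condition for naming it among the largest falls. The BGN call was lost without lean oleate replicate 3 or without either of fat oleate replicates 1 and 2, with limma adjusted p up to 0.0634. Among stromal markers the filament protein VIM (−0.18 ± 0.04) and the proteoglycan LUM (−0.58 ± 0.19) were the 2 calls of 29, both lower. The smooth muscle actin ACTA2 was lower by −0.86 ± 0.26, the only call of 16 contractile genes. The calls of LUM and ACTA2 held with 4 and 6 of 12 arrays left out. The LAMA2 call was not followed under other settings or with arrays left out. The POSTN call was lost when only the 12 arrays were fitted, the ACTA2 call with no floor, the LUM call with no filter, and the LUM and COL1A1 calls without trended, robust moderation.

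Other lists gave 0 to 2 calls each. Oxidative phosphorylation had 0 higher and 2 lower of 54 (ATP5J2, −0.71 ± 0.13, with its 4 probe sets from −0.77 to 0.40, and NDUFA4, −0.19 ± 0.06), the cell cycle 1 higher and 0 lower of 61 (CCND1, 0.35 ± 0.11), and oxidative stress 1 higher and 0 lower of 32 (TALDO1, with another of its probe sets called lower, at −1.42). Of skeletal muscle genes 1 of 5 was lower (TNNT3, −0.58 ± 0.17). The calls of CCND1 and TNNT3 each held with only 5 of 12 arrays left out and that of NDUFA4 with 7, and the TNNT3 call was lost when only the 12 arrays were fitted, the NDUFA4 call without trended, robust moderation. The lists of ribosomal proteins (63 tested), the unfolded protein response (29), interferon response (24), immediate early genes (19), endothelial cells (17), lymphocytes (17), mesothelium (7) and red cells (5) had 0 genes called in either direction by limma. The median of the interferon list differed in sign between the lines. It was 0.36 in lean (21 of 24 above 0) and −0.61 in fat cultures (3 of 24 above 0). Over all genes 4650 and 4715 of 10195 lay above 0. The list's mean level varied widely within groups, from 6.08 to 7.11 in lean control and 5.82 to 8.21 in lean oleate cultures. In the fat line it ran from 6.21 to 8.71 in control and 5.62 to 8.59 in oleate cultures. The groups thus overlapped in both lines, and listed genes are not independent replicates. The line difference called 0 of the 24 genes, so opposite movement was not shown.

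The largest fall of a named gene was that of C1QTNF3, a secreted relative of adiponectin. It read 7.31, 4.99 and 6.94 in lean control and 2.94, 3.52 and 2.49 in lean oleate cultures. In the fat line it read 7.13, 5.48 and 3.53 in control and 2.32, 1.61 and 1.61 in oleate cultures, the last 2 at the floor. The difference was −3.48 ± 0.78 (limma adjusted p = 0.00193). Its groups were apart in both lines, which was a condition for naming it and the other falls listed here. GAS2, a protein of the actin skeleton, was lower by −1.42 ± 0.26 and the same in both lines, and CDO1, which degrades cysteine, by −1.29 ± 0.28. The spectrin SPTBN5 was lower by −1.97 ± 0.40, the adaptor subunit AP3B2 by −1.63 ± 0.42, the secreted ANGPTL5 by −1.49 ± 0.35, the potassium channel KCNK2 by −1.38 ± 0.35, the homeobox factor LHX8 by −1.33 ± 0.25, the BCL2 relative BOK by −1.17 ± 0.26 and the LIM protein FHL1 by −0.99 ± 0.26. The AP3B2 call was lost without fat oleate replicate 1 (limma adjusted p = 0.0501).

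The rises of similar size outside lipid metabolism were in genes of many kinds. NUDCD1 (2.11 ± 0.24), the actin-binding DBN1 (2.05 ± 0.47), the centrosomal CEP350 (2.03 ± 0.28), the RNA-binding MARF1 (2.02 ± 0.46), the phospholipid-binding CPNE3 (1.98 ± 0.29), GSL (1.91 ± 0.46), the endosomal CLVS2 (1.71 ± 0.43), the glucuronosyltransferase UGT2A1 (1.79 ± 0.30) and FAM13C (1.74 ± 0.28) were called, and non-overlapping groups in both lines were a condition for naming them. The CLVS2 call was lost when only the 12 arrays were fitted and without lean control replicate 1 (limma adjusted p = 0.0555). Several of these genes were low in control cultures. Their lean and fat control means were 2.56 and 3.05 for DBN1, 3.08 and 2.35 for MARF1, 3.46 and 3.31 for CLVS2, and 3.79 and 4.15 for CEP350. These lie below the array median of 4.17, so the 4 genes passed the filter on low values through other groups. Among these was the fat oleate group, all of whose arrays lay above that median in the 4 genes. GSL and IL4I1 also had control arrays below it in each line, down to 3.91 and 2.39 in the fat line. MARF1 and CLVS2 had control arrays at the floor of 1.61. A contrast without oleate also crosses the name styles: arrays taken 12 h before 0 h have low bars in the fat line and dots in the lean line, while 0 h arrays have dots in both. In it, the change to 0 h in the fat line minus that in the lean line was 3.98 for NUDCD1, 2.08 for CEP350 and 2.69 for CPNE3 (limma adjusted p of 3.77e-07, 0.0227 and 0.00285). In the same contrast UGT2A1 was at 1.09 (adjusted p = 0.466), FAM13C at −0.25 (0.930), PLIN2 at 0.36 (0.831), ANGPTL4 at −0.80 (0.628) and ACSL1 at −0.81 (0.171), none of them called. These genes are a selection. Values in this contrast are not given for DBN1, MARF1, GSL, CLVS2, IL4I1, PDK4, LPIN2, FABP7, VEGFA and SMAD6. That contrast also differs by line and growth, and its errors are larger. The median SE over genes was 0.31 in it, against 0.15 for the oleate effect at 24 h. A gene that was not called in it may therefore still differ between the name styles. Over all genes this contrast called 127 higher and 67 lower (1.25% and 0.657% of 10195). Of the 402 genes that were higher in oleate, 83 (20.6%) were called higher in it and 2 lower, and of the 293 lower genes 5 (1.71%) were called lower and 1 higher.

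Against 0 h, the oleate cultures at 24 h were higher in 155 genes and lower in 129, which are 1.52% and 1.27% of 10195. This comparison uses the same oleate arrays as the comparison with control, so the values are given side by side and not as independent evidence. The lowest count with an array left out was 84 genes, without fat 0 h replicate 1, and the highest 661, without fat 0 h replicate 3. PLIN2 was higher than at 0 h by 1.14 ± 0.21 (limma adjusted p = 0.00111), ANGPTL4 by 1.30 ± 0.28 (0.00647), UGT2A1 by 1.46 ± 0.30 (0.00381), FAM13C by 1.00 ± 0.28 (0.0374), ACSL1 by 0.63 ± 0.15 (0.0136) and ELOVL1 by 0.66 ± 0.14 (0.00433). These 6 genes were called against both references.

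Other genes were called against control and not against 0 h. PDK4 lay 0.48 ± 0.25 above 0 h and CPT1A 0.23 ± 0.29, neither called. FABP4 (0.32 ± 0.52), CD36 (0.10 ± 0.53), FABP7 (0.01 ± 0.20), LPIN2 (−0.00 ± 0.13), VEGFA (0.12 ± 0.22), THBS1 (0.03 ± 0.11) and SMAD6 (0.16 ± 0.14) were not called against 0 h either. For NUDCD1, CPNE3, CEP350, DBN1 and IL4I1 the differences from 0 h were −0.60, −0.65, −0.28, 0.06 and 0.02. In these 5 genes the control means lay below both the oleate and the 0 h means in each line. Low control means did not set them apart, since MARF1, CLVS2, PLIN2, ANGPTL4 and FAM13C showed the same order. PLIN2 averaged 9.17 in lean control, 10.12 in lean 0 h and 10.95 in lean oleate cultures. Its fat means were 9.67, 10.15 and 11.60. UGT2A1 and ACSL1 did not show it, with lean UGT2A1 at 5.44 at 0 h and 5.56 in control, and fat ACSL1 at 7.63 and 7.67. Among the falls, GAS2 (0.02), CDO1 (0.11), BOK (0.10) and C1QTNF3 (−0.31) were not called against 0 h. BGN lay 1.26 ± 0.41 above 0 h, which was not called (limma adjusted p = 0.0836), its lean cultures averaging 6.13 at 0 h, 7.11 with oleate and 8.15 without. The LIM protein FHL1 was called in the opposite direction, at 1.19 ± 0.26 against 0 h and −0.99 against control. ADAMTS5 and SERPINB10B, a serpin, were the reverse, at −0.67 ± 0.17 and −1.30 ± 0.38 against 0 h and 0.83 and 1.51 against control.

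**Figure D4:**
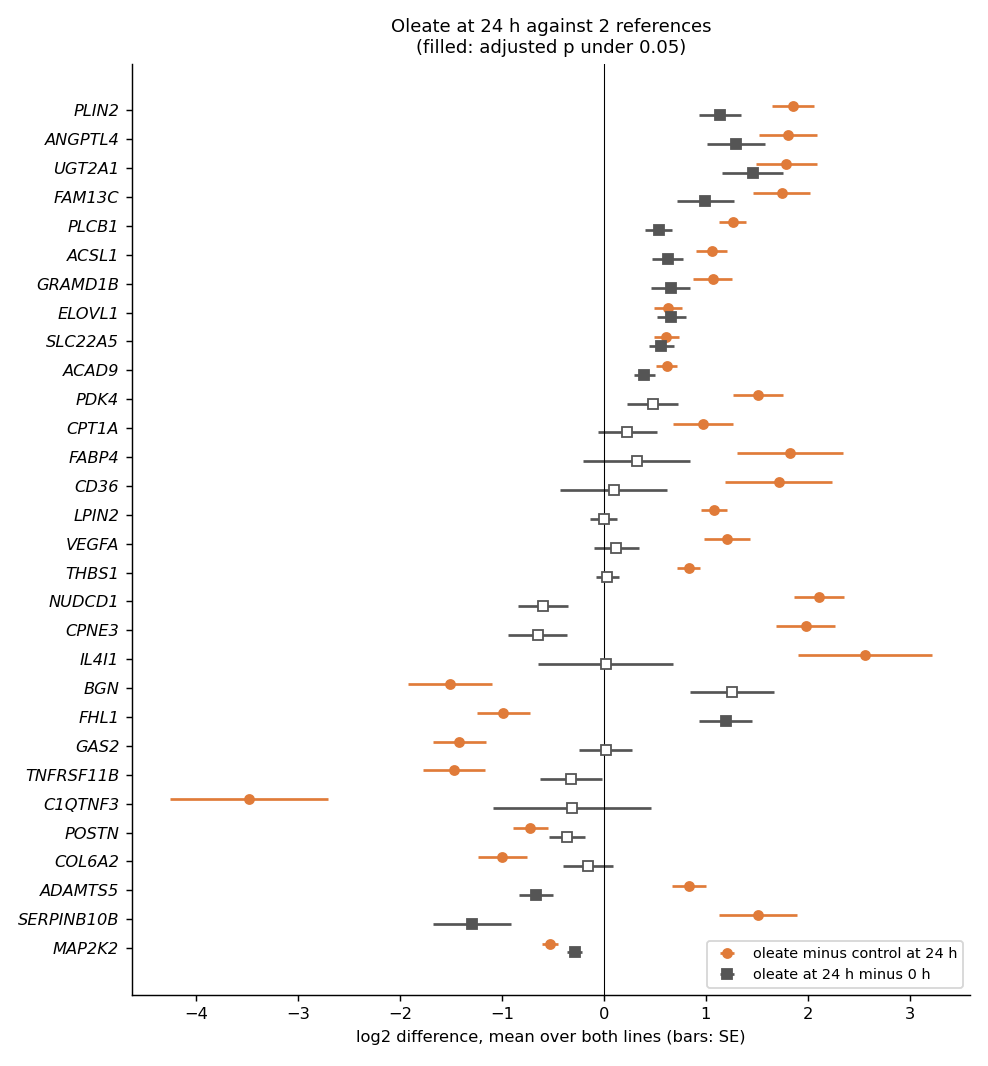
Log2 difference (points, with SE) of oleate cultures at 24 h from control cultures at 24 h (orange) and from 0 h cultures (grey), mean over both lines, filled where the adjusted p is under 0.05. PLIN2, ANGPTL4 and UGT2A1 lie to the right of 0 by both references, NUDCD1 and CPNE3 by the control reference alone.

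Of the 402 genes higher than control, 23 were also called higher than at 0 h and 6 lower. Of the 293 genes lower than control, 15 were also called lower than at 0 h and 4 higher. Over all genes 1.52% were higher and 1.27% lower than at 0 h. Both comparisons use the same oleate arrays, so their overlap is not independent evidence. Calls of single genes against 0 h were not followed under other settings or with arrays left out. Some of the 38 genes called the same way against both references were singled out after their values were seen. SLC22A5, the carnitine transporter, was higher by 0.61 ± 0.12 than control and by 0.56 than 0 h. The acyl-CoA dehydrogenase family member ACAD9 was higher by 0.61 ± 0.10 and 0.40, the phospholipase PLCB1 by 1.26 ± 0.13 and 0.54 with 5 of its 5 probe sets called against control, the sterol transfer protein GRAMD1B by 1.07 ± 0.19 and 0.65, and the mitochondrial protease LONP1 by 0.37 ± 0.10 and 0.46. The kinase MAP2K2 was lower by −0.53 ± 0.08 and −0.29, PITPNC1, a phosphatidylinositol transfer protein, by −0.66 ± 0.18 and −0.71, and the focal adhesion protein TNS3 by −0.71 ± 0.15 and −0.60. In the contrast without oleate that crosses the name styles, PLCB1 was at 0.70, ACAD9 at 0.31, SLC22A5 at 0.03, GRAMD1B at −0.01 and LONP1 at −0.11. MAP2K2 was at 0.35 in it, PITPNC1 at −0.45 and TNS3 at −0.70, and none of these genes was called there. Of the rest of the 38, CHKA (−1.45, limma adjusted p = 0.00314), SLC12A4 (−0.73, 0.0354) and DNAJC8 (0.45, 0.0157) were called in it. Each of these was opposite in sign to its difference from control. Against control, the LONP1 call was lost when only the 12 arrays were fitted and without lean or fat control replicate 1 (limma adjusted p up to 0.0701), and the PITPNC1 call without lean control replicate 1 (0.0806). In fatty acid oxidation 3 of 24 genes were higher than at 0 h and 0 lower. Besides ACSL1 and ANGPTL4 it was the isomerase ECI2, at 0.48, which was −0.12 against control and not called there. The list's median against 0 h was 0.30, against −0.00 for all genes. Of the 24 genes 23 lay above 0, against 5000 of 10195 over all genes. Against control the list's median was 0.07 and 18 of the 24 lay above 0. The comparison with 0 h also spans 24 h of culture, and listed genes are not independent replicates.

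Other genes were called against 0 h while oleate and control cultures at 24 h lay close together or were not told apart. The metallothionein MT3 lay 1.79 ± 0.26 above 0 h in oleate cultures and differed from control by 0.05, and MT4 lay 1.45 ± 0.28 above 0 h and differed from control by 0.14. CHAC1, a glutathione-degrading enzyme of the integrated stress response, was at 1.56 ± 0.37 against 0 h and −0.70 against control, the latter not called. Of 29 genes of the unfolded protein and integrated stress list, 4 were higher than at 0 h: CHAC1, the kinase EIF2AK3 (0.58), HERPUD1 (0.58) and the bZIP factor CEBPG (0.31), the last 3 named after their values were seen. FGF16 (−2.28 ± 0.66), KIF6 (−1.61), NMB (−1.41), the insulin receptor substrate IRS2 (−1.31) and the calcium channel CACNA1E (−1.18) were lower than at 0 h, and none was called against control. SMARCD1 (1.42) and IL23R (1.31) were the other large rises.

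Within lines, 139 genes were higher and 36 lower in oleate in the lean line (1.36% and 0.353%), and 188 higher and 76 lower in the fat line (1.84% and 0.745%). When only the 6 arrays of the lean line were fitted, 1 gene was called. Leaving out an array gave 83 genes (without lean oleate replicate 3) to 158 in the lean line and 138 (without fat oleate replicate 2) to 220 in the fat line. Of the 402 genes higher over both lines, 401 had the same sign in both lines, as did 293 of 293 lower genes, which follows in part from calling on the mean of the lines. The test of the difference itself, the fat effect minus the lean effect, called 0 genes higher and 0 lower (0% of 10195 in either direction) with limma, while 301 genes, 2.95%, had an unadjusted p under 0.05 and the smallest adjusted p was 0.375. The difference was 0.15 ± 0.41 for PLIN2, 0.22 ± 0.57 for ANGPTL4, −0.01 ± 0.30 for ACSL1 and 1.50 ± 1.05 for FABP4. These errors do not set close bounds on how alike the lines were. The poly-A spike-ins differed between lines as well, with medians of −0.29 for lean and −1.14 for fat cultures.

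**Figure D5:**
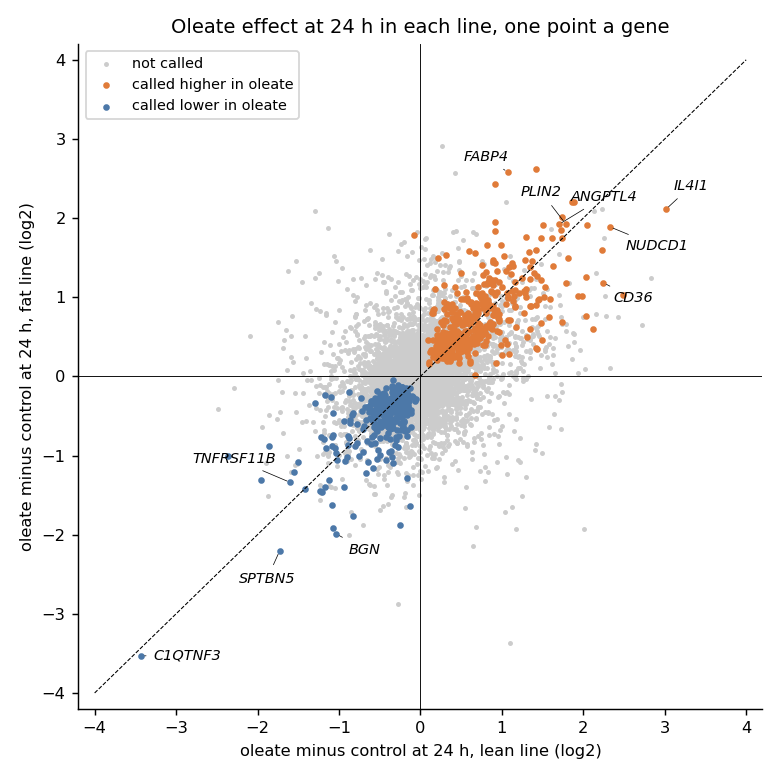
Oleate minus control at 24 h in the lean line (x axis) and the fat line (y axis), log2, for each of 10195 genes, coloured where called over both lines, with the dashed line at equal effects. Most coloured points lie in the upper right and lower left quadrants, since 401 of 402 higher and 293 of 293 lower genes have the same sign in both lines, and C1QTNF3 is the lowest of those called.

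The difference at 24 h was set against that at 12 h and at 72 h, in which a shift shared by all control arrays cancels. A shift that differs between hours does not cancel. At 12 h, 16 of 27 hybridization spike-ins were lower in oleate than in control (median −0.22), against 0 of 27 at 24 h and at 72 h. The effect at 24 h minus that at 12 h called 0 genes higher and 0 lower with limma (0% each, 383 genes or 3.76% at an unadjusted p under 0.05, smallest adjusted p 0.691). Against 72 h it also called 0 and 0 (298 genes or 2.92%, smallest adjusted p 1). The oleate differences of PLIN2 at 12, 24, 72 and 120 h were 2.10, 1.86, 1.63 and 1.84. Those of ANGPTL4 were 1.16, 1.81, 1.32 and 1.80, and those of PDK4 1.56, 1.51, 1.11 and 1.51. PPARA was at 0.12, 0.53, 0.10 and 0.05, the highest value being that at 24 h, and its change between hours was not called. At the same 4 hours the differences of MVD were 2.33, 0.85, 0.38 and −0.31, and those of INSIG1 0.81, 0.19, −0.13 and −0.67. Over the 26 cholesterol genes the median of the effect at 24 h minus that at 12 h was −0.41, against −0.01 for all genes.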

How the data were processed

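Per the labels' protocols, biotin-labelled cRNA was made from 6 µg RNA and measured on Affymetrix chicken arrays. The deposited values are log2 expression per probe set (38535), as judged from the values, which have nearly the same distribution on every array. MAS5 is named without a version or role, per the submitters' processing notes. The log base and any quantile step are not given in the sources used here. No depth applies, and the number of arrays limits the precision.

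Lower values were set to 1.61, which is the 20th percentile of the typical array. Tests covered 22060 probe sets whose level passed the array median in every array of some group, and a gene was represented by its probe set with the highest mean over all arrays. Of the 38535 probe sets, 27178 named 1 gene in the platform annotation, 177 several and 11180 none. Means of the 22 groups were estimated from all 66 arrays with limma 3.58.1 in R 4.3.3 (trended, robust moderation, 44 residual degrees of freedom). The 7 comparisons, and a further contrast of arrays without oleate that crosses the name styles and was not among the planned comparisons, were tested two-sided, with Benjamini-Hochberg adjustment over 22060 probe sets, and called at an adjusted p under 0.05. The 96 control probe sets were fitted apart. The script was tested on simulated data.

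Genes were named by rule: the 12 largest rises and 12 largest falls with non-overlapping arrays in both lines, 6 and 6 against 0 h, up to 5 called members of each of 25 lists, and a fixed set of lipid and marker genes named whatever their values. Unnamed loci, with symbols of the LOC, open reading frame, KIAA or clone style, were left out of the ranking of rises and falls. The samples and lists were chosen with earlier results of these data known, and 11 genes called against both references were added after their values were seen, as were LAMA2, PDGFD and the list members so marked. Replicate numbers were not used to pair the samples. Deviations from group means correlated with a mean r of 0.0013 over the 6 pairs with equal numbers. Taken over all tested probe sets, that value cannot exclude pairing in some genes. Macrophage marker levels fell with replicate number in lean control (7.30, 7.08, 6.23), lean oleate (9.14, 8.50, 7.61) and lean 0 h cultures (9.32, 8.77, 8.24). They also fell in fat oleate (8.84, 8.60, 8.42) but not in fat control cultures (8.14, 7.99, 8.11). Alternatives were the floor, the filter, the arrays fitted, the moderation, the replicate block, the culture series, array weights and leaving out arrays in turn. No sequence was used.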

Additional observations from a re-analysis of the deposited data

Results flagged for a closer look

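The poly-A spike-in controls differed between the lines in their oleate difference at 24 h. The median over 42 probe sets of the fat difference minus the lean difference was −0.82, from −0.29 in the lean line and −1.14 in the fat line, and 28 of 42 probe sets were called lower in the test of the difference. On single arrays the mean spike-in level was 6.40 to 6.50 in lean oleate and 5.78 to 5.91 in fat oleate cultures, against 6.73 to 6.86 and 6.84 to 7.02 in the controls. For genes, the same test of the line difference called 0 of 10195. The part of this shift in the gene differences was not tested.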

How the results depend on the processing

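With the replicate block (numbers within a line) 865 genes were called over both lines against 695 without it, and no count of calls moved by over 1.5 times. The pairing of numbers changed no call of a named gene. Over both lines the count lay between 545 (no filter) and 865 except with array weights, where it was 1300 (637 higher and 663 lower), and leaving out arrays gave 486 (without lean oleate replicate 3) to 641. In the lean line 175 genes became 1 when only its arrays were fitted and 442 with array weights, and 83 to 158 with an array left out. In the fat line 264 became 627 with array weights and 138 to 220 with an array left out. Against 0 h 284 became 179 with no filter, 189 with only those arrays fitted, 515 with the culture series as a random block, 1363 with array weights, and 84 to 661 with an array left out. The line difference and the effects at 24 h minus 12 h and 72 h stayed at 0 under all of these, and from 0 to 0 with an array left out. The cause was not tested. Direction was compared for called genes only, and none reversed. Of 80 named genes called over both lines, 60 were called under every one of up to 8 such settings, 50 with every array left out in turn and 47 under both. LAMA2 and PDGFD were not among these 80. Signals near the floor limit the precision for genes such as C1QTNF3 and IL4I1, which had arrays at the floor.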

Other observations

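The named probe sets of the array are of several designs. Probe sets with GgaAffx names were 37.2% of those tested, 46.6% of those called higher and 25.4% of those called lower in oleate at 24 h. Probe sets without a single named gene were 21.2% of those tested, 13.3% of those called higher and 22.1% of those called lower. The gene counts leave these out, and also represent each gene only by its probe set with the highest mean. After both steps, 1147 higher probe sets stood against 402 higher genes, and 556 lower probe sets against 293 lower genes. The gene counts were thus reduced by a larger share for the rises than for the falls.

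The second lean oleate array was the lowest of its group in PLIN2 (10.34), ANGPTL4 (7.24), ACSL1 (7.92), PDK4 (7.02), CPT1A (4.85), FABP4 (10.11) and FABP7 (10.40), genes chosen after their values were seen. In the fat line the third oleate array was the lowest in PLIN2 (11.25), ANGPTL4 (8.37), PDK4 (6.85), CPT1A (4.91), FABP4 (9.96), CD36 (6.46) and FABP7 (10.63), and the highest in BGN (7.84).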
